A study of Mus musculus with 32 samples.

Results

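The comparison set out here is the late 2-cell stage against the late 1-cell stage in control embryos of the B6 strain, measured by total RNA sequencing. It rests on 4 of the 32 libraries of a study of Dppa2 and Dppa4, neighbouring genes for nuclear proteins of early embryos, in mouse 1-cell and 2-cell embryos. The members were taken by their labels: both libraries of m+z+ Dppa4 1-cell embryos (12 hours after fertilization) and both libraries of m+z+ Dppa4 2-cell embryos (28 hours). The label m+z+ means that the maternal and the zygotic alleles were intact, so these 4 libraries hold no mutation and serve elsewhere in the study as the controls of the maternal Dppa4 mutant. All 4 share the strain (B6), the source (whole embryos, lysed), and a stranded total RNA kit. The labels give neither the number of embryos in a library nor whether libraries 1 and 2 came from separate collections, so p-values measure the spread between libraries, which may be partly technical. The values are FPKM, fragments scaled by gene length and by the library's fragment total. FPKM gives a share of a library's RNA, so a smaller share and a smaller amount per embryo cannot be told apart.

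A mouse egg stops transcribing before it is ovulated, and the 1-cell embryo lives mainly on RNA and protein that the mother stored. During the 1-cell stage a weak, minor wave of transcription begins. The main activation of the embryonic genome follows in the 2-cell stage, while much of the stored maternal RNA is degraded. Total RNA libraries also count stored messages with short poly(A) tails, which polyA selection captures poorly, and RNAs with no tail at all.

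Levels of 4 marker genes are given here, library 1 first and library 2 second within each stage. These genes were chosen with earlier results of these data known, so they are no independent check of the stage labels. Zfp352, a retrotransposon-derived zinc finger gene used as a 2-cell marker, stood at 0.280 and 0.388 FPKM in the 1-cell libraries and 68.5 and 84.8 FPKM in the 2-cell libraries. Zar1l, which encodes an RNA-binding protein of the oocyte, stood at 208 and 216 FPKM in the 1-cell libraries and 16.05 and 18.8 FPKM in the 2-cell libraries. Each marker's stages were far apart, and the libraries of a stage were close together. Bms1, a GTPase of small ribosomal subunit assembly, went from 323 and 335 FPKM to 23.5 and 24.4 FPKM. Hsp90aa1, the inducible cytosolic HSP90 chaperone, went from 1228 and 1636 FPKM to 150.4 and 123 FPKM. In all 4 genes no library of one stage overlapped the other stage, as in 78.2% of all genes tested. Dppa4, like Dppa2 a gene mutated elsewhere in the study, was present in every library. It stood at 4.37 and 6.92 FPKM in the 1-cell libraries and 30.1 and 17.6 FPKM in the 2-cell libraries. The difference was 1.88 (SE 0.39, limma adjusted p = 0.0015) on the log2(FPKM + 1) scale. With a pseudocount of 0.1 in place of 1 the limma adjusted p of Dppa4 was 0.0535. Its neighbour Dppa2 stood at 47.7 and 51.1 FPKM in the 1-cell libraries and 49.5 and 49.5 FPKM in the 2-cell libraries, and the stages overlapped.

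**Figure D1:**
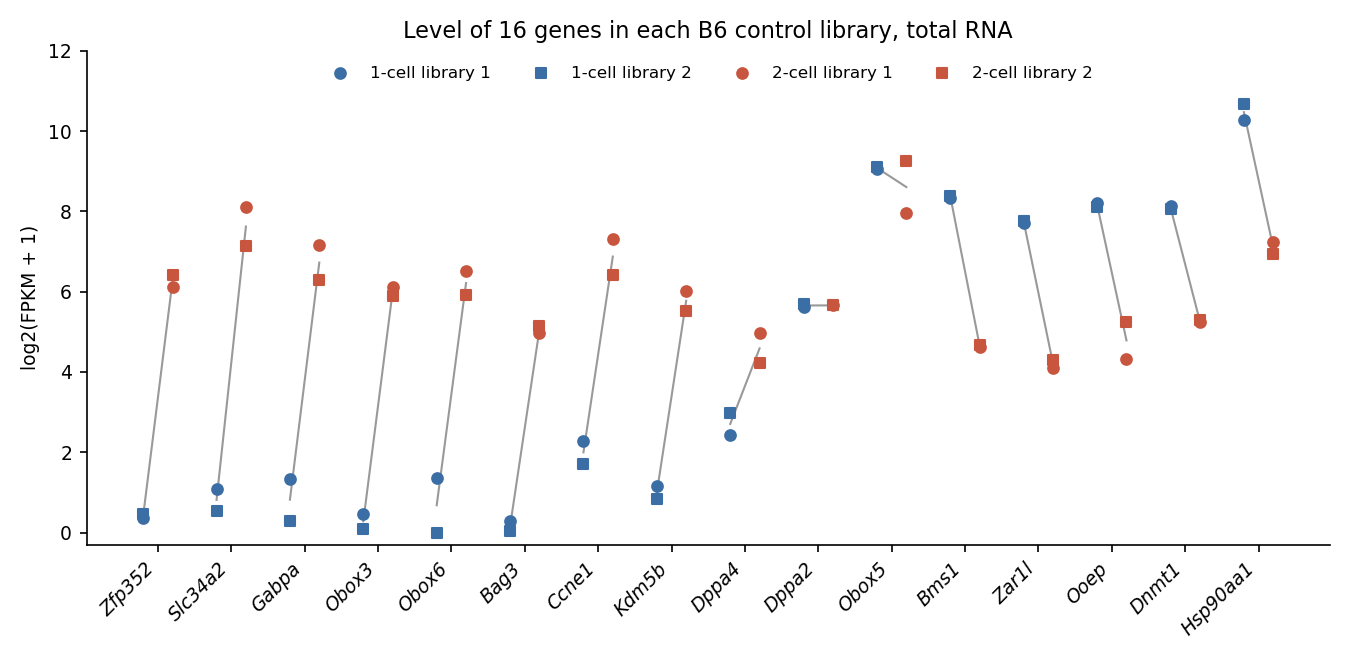
Each point is 1 library: 1-cell libraries in blue and 2-cell libraries in red, library 1 as a circle and library 2 as a square, with the level on the y axis as log2(FPKM + 1) and a line between the stage means. Genes from Zfp352 to Kdm5b lie low at the 1-cell stage (under 4 FPKM), genes from Bms1 to Hsp90aa1 lie lower at the 2-cell stage, the Dppa2 points overlap, and the 2-cell libraries lie on either side of the 1-cell level of Obox5.

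Libraries of a stage correlated across genes at r = 0.987 (1-cell) and r = 0.953 (2-cell), where genes are not independent replicates. Fragment totals were not used here. From the smallest step between low values, the 1-cell libraries held an estimated 23580000 and 26370000 fragments and the 2-cell libraries 18100000 and 18010000 fragments. Between 10706 and 12505 genes per library reached 1 FPKM. The sums of FPKM were 417600 and 417500 for 1-cell libraries and 560200 and 511100 for 2-cell libraries. The 10 highest genes held 21.8% and 21.3% of FPKM in 1-cell libraries, then 42.9% and 39.6% in 2-cell libraries.

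Of 15068 genes tested in limma, 3755 (24.9%) rose and 3649 (24.2%) fell. These 7404 genes (49.1%) are the background against which the gene groups below are read. The spread of each gene was estimated over all 16 total RNA libraries, mutants and mixed-background embryos included. With the 4 libraries fitted alone there were 3423 rises and 3345 falls, which kept 83.6% and 85.9% of those above. A further measure, no overlap between the 2 stages' libraries, held for 11789 genes (78.2%), so on its own it says little here. It held for 3754 of the 3755 rises and for all 3649 falls, so it adds nothing to a call. With FPKM rescaled to 1 common sum in every library (TPM), the median of all genes shifted by -0.34 on the log2 scale and the split became 3087 rises against 4834 falls (39.0% of calls rose). No gene called in both scalings changed direction, and all 3649 falls were kept. Of the 859 listed genes called in the groups below, 598 also passed with any 1 of the 4 libraries left out.

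The rises and falls lay in different ranges of level, which is partly built in, since the 1-cell level enters the change. Genes that rose had a median of 0.831 FPKM at the 1-cell and 8.42 FPKM at the 2-cell stage, and 1960 of the 3755 lay under 1 FPKM at the 1-cell stage. Genes that fell had medians of 18.3 and 6.22 FPKM, and 558 of them lay under 1 FPKM at the 2-cell stage. Among genes with at least 10 FPKM at the 1-cell stage, 716 rose and 2440 fell. Changes of 8-fold or more on this scale (a log2 change of 3) were reached by 468 rises and 77 falls.

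The largest rise by the rule for named genes was that of Slc34a2, a sodium-phosphate cotransporter, which stood at 1.11 and 0.462 FPKM in the 1-cell libraries and 273 and 141 FPKM in the 2-cell libraries, which is 6.81 (SE 0.40, limma adjusted p = 8.2e-08) in log2 terms. The next were AF067063 (change in log2: 5.91), Gabpa (5.90), which encodes the DNA-binding subunit of an ETS-family factor, Zfp352 (5.86, SE 0.24), Btbd18 (5.80) and Obox3 (5.73). Bex6, Ficd, an adenylyltransferase of the endoplasmic reticulum, Zscan5b, Obox6, the pseudogene Obox4-ps35 and the metallothionein Mt1 completed the 12, with log2 differences between 5.47 and 5.66. In every one of the 12, both 2-cell libraries lay above 40 FPKM and both 1-cell libraries under 3 FPKM.

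At the other end, Rgs2, a regulator of G-protein signalling, stood at 248 and 234 FPKM in the 1-cell libraries and 7.18 and 16.02 FPKM in the 2-cell libraries, which is -4.36 (SE 0.33, limma adjusted p = 6.2e-07) in log2 terms. Pabpn1l, which encodes an oocyte poly(A)-binding protein, went from 119 and 105 FPKM to 4.27 and 6.87 FPKM. Both genes were lower in 2-cell library 1 than in library 2. Neither overlapped the 1-cell stage, which the rule for named genes required. Ndufc2 (a complex I subunit), Oas1h, Aspm (a spindle protein), Pnpla3, Bms1, Pfdn1 (a prefoldin subunit), Fam162a, Med17 (a Mediator subunit), Stim2 (a calcium sensor) and Rnaset2a (a ribonuclease) fell by 3.64 to 4.09 on the log2 scale. Of the 12 genes, 11 were lower in 2-cell library 1 than in library 2 (Bms1 by under 1 FPKM), and Ndufc2 was higher.

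The 2-cell libraries did not stand at the same distance from the 1-cell stage. This was measured with 2905 genes that rose and 1469 that fell at least 2-fold between WT 1-cell and 2-cell embryos (B6) in polyA RNA, whose libraries are not part of the total RNA table. Their median difference from the 1-cell mean was 1.56 for the rises and -1.58 for the falls in 2-cell library 1. In 2-cell library 2 the medians were 1.01 and -1.25. Library 1 was the higher in 2462 of the 2905 rises and the lower in 1144 of the 1469 falls. No test was made, since this sets 1 library against 1.

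The other 6 total RNA 2-cell libraries place these values. Each was measured against the 1-cell libraries of its own group. The maternal Dppa4 mutant libraries (B6, m-z+: without the maternal and with the zygotic allele) had medians of 1.29 and 1.36 for the rises and -1.45 and -1.54 for the falls. Control libraries of the Dppa2 arm (mixed B6/DBA background) had 1.89 and 1.55, and -1.85 and -1.92, and maternal Dppa2 mutant libraries (m-z+) 1.52 and 1.68, and -1.80 and -1.76. B6 control library 2 thus had the smallest median of the 8 libraries in both classes. Library 1 was the highest of the 4 B6 libraries in the rises and the lowest of them in the falls.

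**Figure D2:**
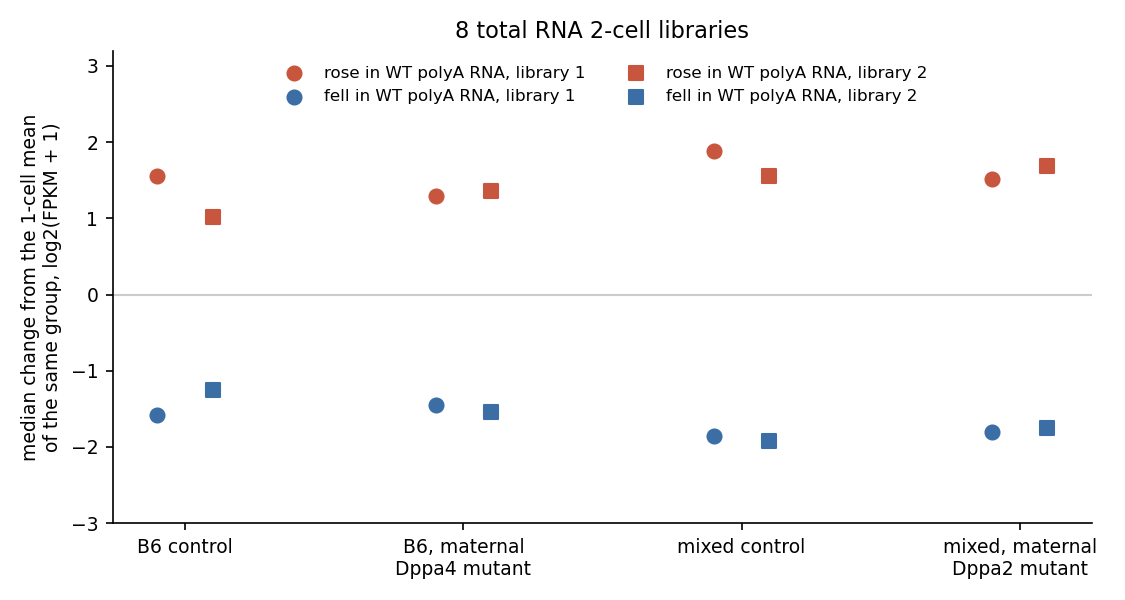
Median change from the 1-cell mean of the same group on the log2(FPKM + 1) scale, for 2905 genes that rose (red) and 1469 that fell (blue) in WT polyA RNA, in each of the 8 total RNA 2-cell libraries (circles, library 1; squares, library 2). The square of the B6 control lies nearest to 0 in both classes, at 1.01 and -1.25.

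Over all genes tested, 954 (6.33%) were at least 2-fold higher in 2-cell library 1 and 358 (2.38%) in library 2, on the log2(FPKM + 1) scale. Among genes that rose, library 1 was higher in 2844 of 3755. Among genes that fell, library 1 was lower in 2297 of 3649. Where library 2 was higher, both kinds of gene appeared. Itga9, an integrin subunit, stood at 121 and 113 FPKM in the 1-cell libraries and 27.02 and 122 FPKM in the 2-cell libraries, so library 2 lay at the 1-cell level and library 1 below it. The maternal gene Nlrp14 (54.5 and 179 FPKM in 2-cell libraries 1 and 2) and the germ cell RNA-binding protein gene Dazl (27.3 and 89.99 FPKM) had fallen further in library 1. Tom1l1 and Zfp738 were likewise lower in library 1. In contrast, Hes1 (7.23 and 32.1 FPKM), a repressor of the basic helix-loop-helix class, and the 2-cell gene Zscan4c (6.98 and 25.1 FPKM) had risen in both libraries, and further in library 2. Without library 2 the limma adjusted p of Hes1 was 0.0561. Highest in library 1 against library 2 were 2 small RNAs, Scarna3a (35.3 FPKM and listed at 0) and Snora70 (10.4 and 0.215 FPKM), then Pakap, Stmn3, AA415398, Lclat1, the ribosomal protein gene Rps27 (34.3 and 6.48 FPKM) and Zfp639. In Scarna3a, Pakap, Snora70, AA415398, Lclat1 and Zfp639 library 2 lay within or below the 1-cell range while library 1 lay above it, and none of these 6 passed the stage test.

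The 1-cell libraries also differed, to a smaller extent. Among the genes that rose, 1-cell library 1 was the higher in 2360 and library 2 in 1080, and 315 were listed at 0 in both. Library 1 stood at 1 FPKM or more and over 2 times library 2 in 181 of them, and the reverse held in 22. Gabpa (1.53 and 0.230 FPKM), Obox6 (1.56 FPKM and listed at 0) and Rpsa (3.04 and 0.411 FPKM) are examples. Library 1 was the higher in 52.0% of the genes that fell and in 62.9% of those that rose. These levels are small beside those of the 2-cell libraries, where the same 3 genes stood at 24.9 FPKM or more.

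**Figure D3:**
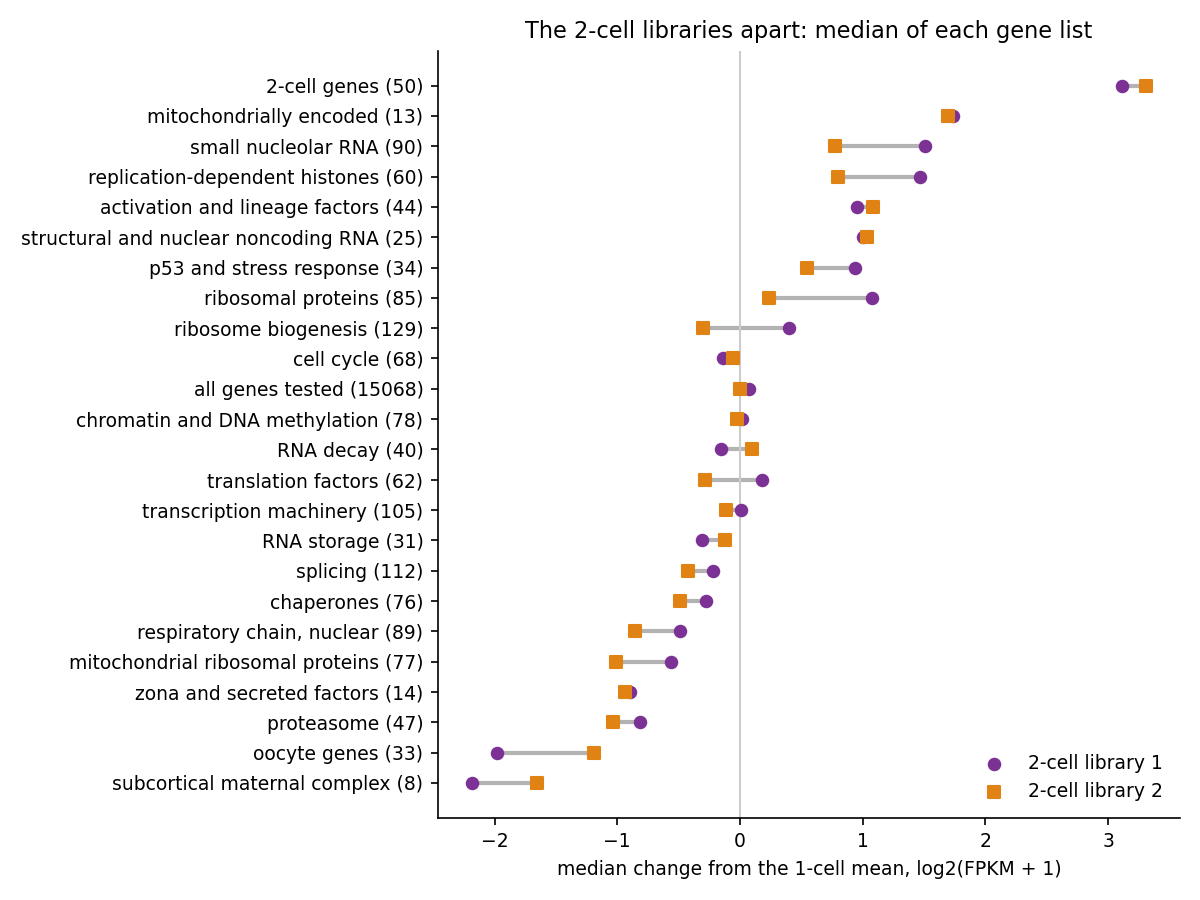
Median change from the 1-cell mean on the log2(FPKM + 1) scale for 23 gene groups and for all genes tested (number of genes in brackets), with 2-cell library 1 as a purple circle and library 2 as an orange square. Library 1 lies further right for ribosomal proteins (1.08 and 0.24), histones (1.47 and 0.80) and small nucleolar RNAs (1.51 and 0.78) and further left for oocyte genes (-1.98 and -1.19), and the ribosome biogenesis pair lies on either side of 0 (0.40 and -0.30).

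Genes known as 2-cell genes, many of them driven by MERVL retrotransposon repeats and carried in recent multicopy families, formed the group with the largest median change. Of 50 tested, 39 rose and 5 fell, with a median log2 difference of 3.15 against 0.04 over all genes. The count of rises was 37 to 40 under TPM and median-ratio scaling, with the 4 libraries fitted alone, and without either 2-cell library. Library 1 was the higher in 19 of the 39 rises, against 2844 of the 3755 rises over all genes, and the medians of libraries 1 and 2 were 3.11 and 3.31. After Slc34a2 and Zfp352, the uncharacterised B020031M17Rik rose from 0.362 and 0.175 FPKM to 42.1 and 65.6 FPKM. Ubtfl1, a relative of the ribosomal DNA factor UBF, rose from 1.22 and 0.0444 FPKM to 70.6 and 43.1 FPKM.

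Within the families, library order differed by name. Zscan4c, Zscan4d, Zscan4e, Zscan4f and Zscan4b, telomere-associated factors of the 2-cell stage, were all higher in library 2, at 9.35 and 14.6 FPKM for Zscan4e. The deubiquitinase genes Usp17la, Usp17lc, Usp17ld and Usp17le were also higher in library 2 (41.7 and 67.8 FPKM for Usp17lc), and Usp17lb was not. Trim43a, Trim43b and Trim43c were higher in library 1 (76.6 and 53.1 FPKM for Trim43b). In these 3 families every 1-cell value of the genes named lay under 4 FPKM. Family members have near-identical sequence, and how reads that fit several copies were shared is not given, so the split among copies is uncertain. The 5 genes of the group that fell were Zfp750, Sp110, Arg2, Eif4e3 and Duxf3. Zfp750 stood at 108 and 108 FPKM in the 1-cell libraries and 15.2 and 35.5 FPKM in the 2-cell libraries, and Sp110 at 139.9 and 148 FPKM in the 1-cell libraries and 38.9 and 43.3 FPKM in the 2-cell libraries. Duxf3, the gene for the factor DUX that switches on many 2-cell genes, was low throughout, at 1.71 and 1.31 FPKM in the 1-cell libraries and 0.476 and 0.315 FPKM in the 2-cell libraries, and its limma adjusted p was 0.0628 to 0.145 with any 1 library left out. The other 4 stood at 105 FPKM or more in both 1-cell libraries.

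Promoters of a pair of the genes that rose are shown because their letters are unlike those of housekeeping genes: few CpG pairs and, in Zfp352, a short tandem repeat. The sequences are the 250 bases before the annotated start in RefSeq (GRCm38.p6), 5′ to 3′ on the gene's own strand. For Zfp352 (chr4:90218570-90218819, forward strand, 2 CpG pairs) capitals mark 7 copies of the 12-base unit AGGACAACACAC, the most frequent stretch of that length in the window, searched after the sequence was seen. For Usp17lc (chr7:103416446-103416695, forward strand, 1 CpG pair) capitals mark TATAAA, the letters of a TATA box. TATAAA on either strand was found in 13.0% of 27025 RefSeq promoters of this length, and the 12-base unit in 1. The median promoter held 6 CpG pairs. A match of letters describes the window and is neither a bound site nor a cause.
Zfp352: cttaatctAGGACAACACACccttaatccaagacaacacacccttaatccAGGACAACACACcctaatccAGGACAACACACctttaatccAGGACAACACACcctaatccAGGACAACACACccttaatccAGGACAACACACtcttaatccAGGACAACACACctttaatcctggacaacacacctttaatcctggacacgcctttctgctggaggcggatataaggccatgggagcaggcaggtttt
Usp17lc: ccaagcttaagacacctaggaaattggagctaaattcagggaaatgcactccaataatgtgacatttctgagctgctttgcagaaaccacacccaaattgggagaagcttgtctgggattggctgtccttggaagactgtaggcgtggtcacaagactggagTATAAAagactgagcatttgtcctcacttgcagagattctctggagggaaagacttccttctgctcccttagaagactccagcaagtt

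Transcription factors of genome activation and of the early lineages rose more often than they fell: 26 of 44 rose and 7 fell (median log2 difference 1.05), with 4 falls when the 4 libraries were fitted alone. Gabpa rose from 1.53 and 0.230 FPKM to 143 and 76.6 FPKM. Klf5, a Krüppel-like factor of the inner cell mass and trophectoderm, rose from 1.79 and 0.549 FPKM to 46.2 and 45.7 FPKM, with the 2-cell libraries nearly equal. Klf9 and the retinoic acid receptor gene Rarg rose from under 1 FPKM to at least 9.87 FPKM. Yy1, Zfp42, Id1, Mycn, Tbx3, Klf4, Sox2, Eomes and Nr5a2 were also among the rises. Sox2 (3.85 and 10.5 FPKM) was higher in 2-cell library 2. Among the 7 that fell were Gata3, from 4.57 and 3.38 FPKM to 0.515 and 0.858 FPKM, and the general factor genes Nfya (51.4 and 67.9 FPKM to 23.6 and 24.96 FPKM), Usf2 and Nfyc. Usf2 did not pass without 1-cell library 2 (limma adjusted p = 0.0871), and Nfyc without 1-cell library 1, 1-cell library 2 or 2-cell library 2 (0.082 to 0.224). Pou5f1, which encodes OCT4, did not pass, at 123 and 125 FPKM in the 1-cell libraries and 96.6 and 117 FPKM in the 2-cell libraries. Nanog lay under 0.3 FPKM in all 4 libraries and was not tested.

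The Obox family, oocyte and embryonic homeobox genes in a tandem cluster, was split by member. Obox3 rose from 0.385 and 0.0650 FPKM to 68.2 and 58.8 FPKM (change in log2: 5.73, SE 0.26, limma adjusted p = 1.8e-08). Obox6 stood at 1.56 FPKM and at 0 in the 1-cell libraries and at 90.5 and 59.2 FPKM in the 2-cell libraries. Obox8 stood at 2.13 FPKM and at 0, and then at 66.2 and 23.3 FPKM. All 3 rose, and in all 3 the 1-cell value was higher in library 1. Obox1 fell from 580.4 and 581 FPKM to 91.7 and 228 FPKM, Obox2 from 392 and 380.4 FPKM to 33.9 and 57.4 FPKM and Obox7 from 66.7 and 61.8 FPKM to 9.44 and 28.2 FPKM. In these 3 falling members 2-cell library 1 was the lower. Obox5 stood at 533 and 549 FPKM in the 1-cell libraries and 247 and 611 FPKM in the 2-cell libraries, so library 1 lay below both 1-cell libraries and library 2 above them (change in log2: -0.48, SE 0.33, limma adjusted p = 0.25). The median over the 7 members was -1.13 in library 1 and 0.17 in library 2, so no direction was given to the family as a whole.

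Maternal genes of the subcortical maternal complex, a protein assembly under the egg's membrane that is needed for the first cleavages, went down together. Of 8 members 7 fell, and 7 or 8 fell under each scaling and without either 2-cell library. Ooep stood at 296 and 276 FPKM in the 1-cell libraries and 19.02 and 36.96 FPKM in the 2-cell libraries (change in log2: -3.38, SE 0.31, limma adjusted p = 2.6e-06). Padi6 fell from 303 and 277 FPKM to 41.8 and 48.9 FPKM and Nlrp5, also called Mater, from 235 and 231 FPKM to 30.7 and 51.5 FPKM. Tle6, Nlrp2, Nlrp4f and Khdc3 also fell, by 1.24 to 2.03 on the log2 scale. Zbed3 was the most abundant protein-coding transcript of the 1-cell stage and did not pass, at 4004 and 4155 FPKM in the 1-cell libraries and 2314 and 3449.6 FPKM in the 2-cell libraries. In 7 of the 8 genes the value was lower in 2-cell library 1 than in library 2; Khdc3 was the exception, and its limma adjusted p was 0.0841 without 1-cell library 1.

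Among other oocyte genes, many of them Nlrp, Oog and Oas members of large families, 25 of 33 fell and 3 rose. Oas1h fell from 173 and 179 FPKM to 6.78 and 19.11 FPKM. Oosp2, an oocyte-secreted protein gene, fell from 162 and 166 FPKM to 7.41 and 21.1 FPKM, and E330021D16Rik from 1208 and 1157 FPKM to 67.9 and 139 FPKM. In 29 of the 33 genes 2-cell library 2 was the higher. The 3 that rose were Taf4b (8.49 and 7.51 FPKM to 30.1 and 23.8 FPKM), a TFIID subunit of germ cells, and the oocyte genes Omt2a (180.2 and 205 FPKM to 401 and 413 FPKM) and Omt2b. Zona pellucida and secreted egg factors fell in 10 of 14 cases, among them Izumo1r, the egg's receptor for the sperm protein IZUMO1, from 78.4 and 78.1 FPKM to 14.1 and 18.4 FPKM. Fgf8 and Plat (tissue plasminogen activator) fell as well. Ovgp1, under 3 FPKM throughout, rose with all 4 libraries and did not pass without 2-cell library 1 or either 1-cell library.

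Genes of RNA storage and translational control, which keep maternal messages silent until they are needed, fell more often than they rose. Of 31 genes 14 fell (45.2%) and 9 rose (29.0%), against 24.2% and 24.9% of all genes tested. The share that rose was thus near that of all genes. Under TPM 18 fell and 7 rose, under median-ratio scaling 14 and 11, and with the 4 libraries fitted alone 14 and 7. The cytoplasmic poly(A)-binding protein genes moved in opposite directions. Pabpc1, the general form, rose from 5.51 and 2.17 FPKM to 129 and 83.6 FPKM (change in log2: 4.53, SE 0.36, limma adjusted p = 8.7e-07), and Pabpc1l, the oocyte form, fell from 93.98 and 92.7 FPKM to 14.2 and 36.7 FPKM (change in log2: -1.98, SE 0.33, limma adjusted p = 0.00033). The stages did not overlap in either gene, as in 78.2% of all genes tested. Zar1 fell from 153 and 159 FPKM to 21.2 and 34.3 FPKM and Dazl from 212 and 219.6 FPKM to 27.3 and 89.99 FPKM. Cpeb1, a regulator of cytoplasmic polyadenylation, fell (-1.66), Cpeb3 fell (-1.13), Cpeb2 rose (1.59) and Cpeb4 rose (0.54). Igf2bp1 rose from under 0.5 FPKM to 16.2 and 11.3 FPKM, Igf2bp2 fell (-1.70) and Igf2bp3 rose (0.47). Patl2, Lsm14b, Eif4e1b, Ybx3, Caprin2 and Mos also fell. Eif4enif1 fell with all 4 libraries. Tex19.1, Pum2 and 4930447C04Rik rose. The calls of Eif4enif1, Igf2bp3 and all 4 Cpeb genes were lost without 1 or more of the libraries (limma adjusted p of 0.0503 to 0.25), and under TPM those of Cpeb4 and Igf2bp3 (0.553 and 0.576). Ybx2, Patl1, Ddx6, Lsm14a, Eif4e, Ybx1, Caprin1 and Nanos1 did not pass, with log2 differences between -0.34 and 0.50.

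Genes of deadenylation and mRNA decay showed no shared direction, with 10 of 40 rising, 11 falling and a median of -0.02. The median was 0.10 without 2-cell library 1 and 0.06 under median-ratio scaling, and under TPM there were 6 rises and 16 falls. Zcchc11, which encodes the uridylating enzyme TUT4, rose from under 0.1 FPKM to 7.72 and 7.89 FPKM, and Btg3, Tob1 and Btg1, of the antiproliferative BTG/TOB family that binds the deadenylase, rose by 2.11 to 2.66. The CCR4-NOT subunit gene Cnot3 fell from 220.1 and 238 FPKM to 57.7 and 83.1 FPKM, and Cnot11, Edc4 (a decapping scaffold) and Papolg also fell. Btg4, an adaptor of the CCR4-NOT deadenylase in maternal mRNA clearance, was among the 5 highest protein-coding genes of the 1-cell stage and stood at 1783 and 1981 FPKM in the 1-cell libraries and 1158 and 1849 FPKM in the 2-cell libraries, with overlapping stages (adjusted p = 0.19 in limma).

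Nucleolar genes of ribosome assembly are of interest because ribosomal RNA synthesis resumes in the 2-cell embryo. Among 129 genes 43 (33.3%) rose and 34 (26.4%) fell, against the background of 24.9% and 24.2%. Their direction depended on the library and the scaling. In 120 of 129 genes library 1 was the higher, and the medians were 0.40 in library 1 and -0.30 in library 2. Without 2-cell library 1 there were 26 rises and 44 falls, without library 2 there were 55 and 25, with the 4 libraries fitted alone 25 and 28, and under TPM 33 and 46. The members were therefore described by their level. Genes that rose had a median of 2.97 FPKM at the 1-cell stage and genes that fell one of 46.0 FPKM. Over all genes tested these medians were 0.831 and 18.3 FPKM, so a gap of this kind was not particular to the group. Part of it is built in, since the 1-cell level enters the change.

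Mak16, a factor of the large subunit, rose from 1.72 and 0.734 FPKM to 84.4 and 66.1 FPKM (change in log2: 5.12, SE 0.32, limma adjusted p = 1.2e-07). Nop16 stood at 0.405 FPKM and 0, and then at 52.2 and 20.4 FPKM. Utp14b, a retrogene of the small subunit processome, rose from 2.64 and 2.16 FPKM to 56.6 and 64.6 FPKM and Nol11 from 1.25 and 0.713 FPKM to 37.6 and 22.2 FPKM. Ubtf, which encodes the ribosomal DNA factor UBF, rose from 3.44 and 2.50 FPKM to 70.4 and 46.3 FPKM. RNA polymerase I subunit genes Polr1b and Polr1c rose and Polr1d fell, and Polr1a did not pass. Taf1a fell from 165 and 152 FPKM to 45.7 and 25.9 FPKM and Taf1b from 34.1 and 33.7 FPKM to 6.70 and 4.35 FPKM, both subunits of the polymerase I selectivity factor SL1, while Taf1d, of the same factor, rose from 53.1 and 57.04 FPKM to 239 and 154 FPKM. Riok1, a kinase of late small subunit maturation, fell from 358 and 382 FPKM to 32.4 and 69.3 FPKM. The abundant nucleolar protein genes Npm1 (436 and 486 FPKM to 289 and 259 FPKM) and Ncl (159 and 155 FPKM to 83.4 and 64.3 FPKM) fell.

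**Figure D4:**
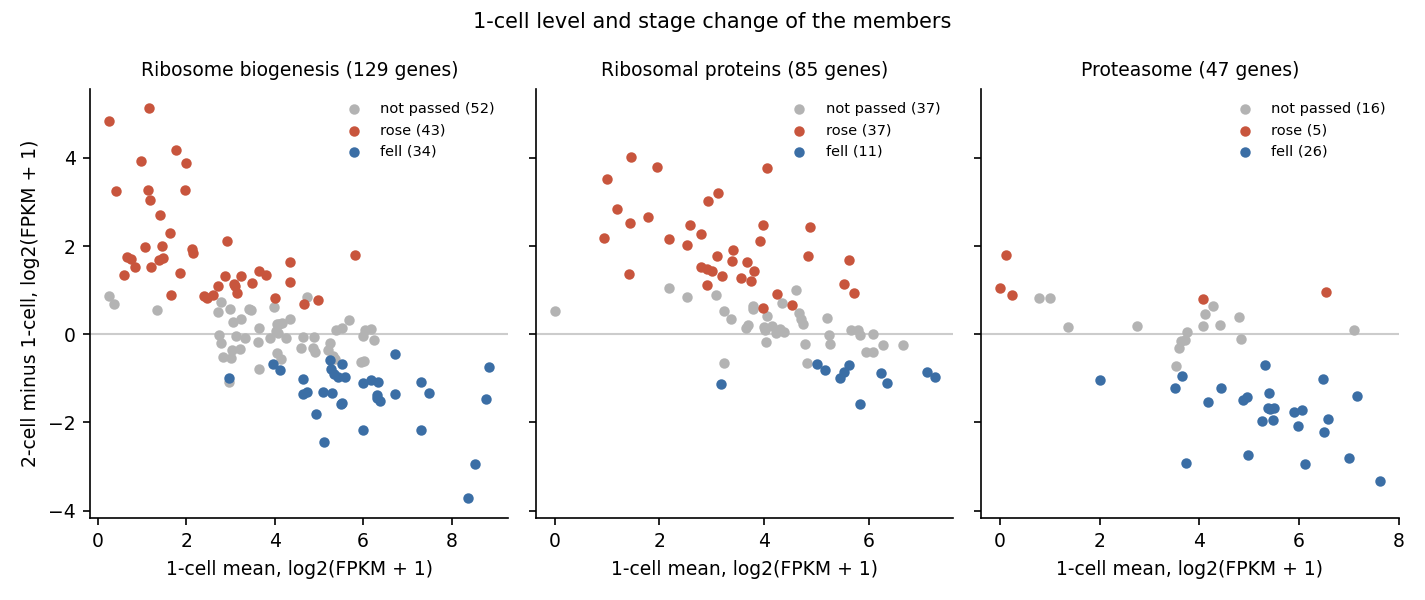
Each point is 1 gene of a group, with its mean 1-cell level on the x axis and its stage change (2-cell minus 1-cell) on the y axis, both as log2(FPKM + 1), in red where it rose, blue where it fell and grey where it did not pass. Both axes use the 1-cell values, so part of the downward slope is built in; genes under 10 FPKM at the 1-cell stage make up most of the rises and abundant genes most of the falls.

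Promoters of Bms1, which fell, and of Nop2 and Polr1c, which rose, are printed side by side because the same letters occur in all 3. Capitals mark CCGGAAG, the core recognised by ETS factors such as the GABPA protein, on either strand (the reverse strand reads CTTCCGG). The windows are the 250 bases before the RefSeq start (GRCm38.p6): Bms1, chr6:118419418-118419667, reverse strand; Nop2, chr6:125131633-125131882, forward strand; Polr1c, chr17:46248046-46248295, reverse strand. A match was found in 34 of the 112 promoters of the group that could be matched (30.4%), against 13.8% of the promoters of all genes tested, of which only 68.1% could be matched, and 7.05% of all RefSeq promoters. It was found in 9 of 36 promoters of rising genes and in 11 of 30 of falling genes, so the letters occurred in both directions of change.
Bms1: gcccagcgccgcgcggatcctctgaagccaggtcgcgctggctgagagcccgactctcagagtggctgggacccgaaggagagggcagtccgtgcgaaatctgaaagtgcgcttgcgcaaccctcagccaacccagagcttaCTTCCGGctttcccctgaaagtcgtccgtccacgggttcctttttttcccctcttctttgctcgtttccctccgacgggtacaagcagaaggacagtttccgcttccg
Nop2: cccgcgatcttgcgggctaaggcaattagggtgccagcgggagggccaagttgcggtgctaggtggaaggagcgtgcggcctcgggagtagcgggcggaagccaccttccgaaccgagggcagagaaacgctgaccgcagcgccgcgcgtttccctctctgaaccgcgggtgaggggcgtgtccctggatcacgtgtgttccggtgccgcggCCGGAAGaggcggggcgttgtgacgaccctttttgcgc
Polr1c: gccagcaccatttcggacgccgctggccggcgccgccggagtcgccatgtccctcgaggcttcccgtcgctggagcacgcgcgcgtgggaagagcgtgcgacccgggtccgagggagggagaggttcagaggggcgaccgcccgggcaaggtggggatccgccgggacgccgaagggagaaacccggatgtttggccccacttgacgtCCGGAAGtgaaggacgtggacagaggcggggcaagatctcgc

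Nop2, an rRNA methyltransferase, rose from 1.32 and 1.08 FPKM to 30.98 and 13.1 FPKM, and Polr1c, a subunit shared by RNA polymerases I and III, from 1.51 and 1.06 FPKM to 24.7 and 12.5 FPKM. Both were higher in library 1. Bms1 lay at nearly the same level in both 2-cell libraries.

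Of 85 genes for cytoplasmic ribosomal proteins 37 rose and 11 fell, with a median log2 difference of 0.60. The size, and the count of falls, rested on the library: the medians were 1.08 in library 1 and 0.24 in library 2, and library 1 was the higher in 83 of the 85. Without 2-cell library 1 there were 26 rises and 19 falls, without library 2 there were 48 and 3, and with the 4 libraries fitted alone 29 and 5. Rplp1, an acidic stalk protein gene, rose from 20.5 and 10.8 FPKM to 309.6 and 149 FPKM. Rps19 rose from 4.17 and 1.56 FPKM to 65.5 and 37.5 FPKM and Rpsa from 3.04 and 0.411 FPKM to 57.2 and 24.9 FPKM. Rpl17 fell from 55.8 and 55.2 FPKM to 22.9 and 13.9 FPKM and Rps4x from 80.4 and 80.6 FPKM to 40.5 and 33.1 FPKM. The summed level of the group was 2230 and 2168 FPKM in 1-cell libraries and 4364 and 2420 FPKM in 2-cell libraries, so the sum of library 2 was close to that of the 1-cell libraries. Ribosomal protein genes have many processed pseudogenes, and reads shared with them could shift single values.

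Genes for the mitochondrial ribosome went the other way, with 37 of 77 falling and 8 rising (median -0.76). Mrps33 fell from 53.3 and 54.05 FPKM to 2.71 and 5.13 FPKM and Mrps31 from 17.6 and 19.2 FPKM to 0.940 and 0.867 FPKM. Mrpl20, at 1.38 FPKM and 0 at the 1-cell stage, rose to 22.2 and 11.46 FPKM. Falls outnumbered rises without either 2-cell library and under each scaling, with 27 to 45 falls.

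Of 62 translation factor genes 17 rose (27.4%) and 19 fell (30.65%), against 24.9% and 24.2% of all genes tested. Under TPM 12 rose and 25 fell (median -0.40). The median with FPKM, -0.04, changed sign between libraries (0.18 and -0.28). Without 2-cell library 1 there were 11 rises and 17 falls. Eif1a rose from under 0.4 FPKM to 9.34 and 7.62 FPKM, and Eif4ebp1, a repressor of cap-dependent initiation, from under 0.3 FPKM to 9.54 and 8.69 FPKM. Eif2ak3, the stress kinase PERK, and Eif3a rose too. Gspt2, a release factor gene, fell from 106 and 108 FPKM to 7.30 and 9.77 FPKM, and Eif1b from 239 and 227 FPKM to 29.2 and 65.5 FPKM. Eif1a and Eif1b moved apart, but they encode different factors (eIF1A and an eIF1 form).

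Chaperone genes fell more often than they rose, 33 of 76 against 15 (median -0.44), with 29 to 41 falls under TPM and median-ratio scaling, with the 4 libraries fitted alone and without either 2-cell library. The fall of Hsp90aa1 was one of several among abundant cytosolic chaperones. Dnaja1, a co-chaperone of HSP70, fell from 293 and 300.5 FPKM to 49.8 and 63.9 FPKM, and the prefoldin genes Pfdn4 from 328 and 350.3 FPKM to 29.8 and 50.3 FPKM and Pfdn1 from 90.1 and 102 FPKM to 4.62 and 9.18 FPKM. Pfdn1 was 3.68 lower on the log2 scale, the largest fall of the group. Hspa8, Hsp90b1, Cct2 and Cct5 fell as well, by 0.86 to 1.61. The rising members named here lay under 10 FPKM at the 1-cell stage. Bag3, an HSP70 co-chaperone of stress responses, rose from 0.210 and 0.0295 FPKM to 30.2 and 34.3 FPKM. Dnajb9, of the endoplasmic reticulum, rose from 9.84 and 5.14 FPKM to 167 and 108 FPKM, Bag5 from 4.02 and 3.28 FPKM to 65.6 and 38.1 FPKM, and Cct6a from 2.58 and 0.186 FPKM to 44.6 and 22.2 FPKM. The small heat shock protein gene Hspb1 rose from 0.981 and 1.08 FPKM to 27.5 and 13.5 FPKM. Hspa1a, whose transient expression marks the start of genome activation in mouse embryos, rose from 1.71 and 2.00 FPKM to 6.37 and 6.66 FPKM, and its neighbour Hspa1b did not pass (5.18 and 6.79 FPKM to 7.59 and 6.47 FPKM); the copies are near-identical, so the split between them is uncertain.

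Promoters of Hspb1, which rose, and of Dnaja1, which fell, are shown because both hold the inverted repeat GAANNTTC, the core of the heat shock element, marked in capitals. The windows are the 250 bases before the RefSeq start (GRCm38.p6), chr5:135887669-135887918 for Hspb1 and chr4:40722218-40722467 for Dnaja1, both on the forward strand. The letters were found in 8 of 65 matched promoters of the group (12.3%) in 5.20% of the matched promoters of all genes tested and in 6.78% of all RefSeq promoters. They occurred in 3 of 14 promoters of rising and 4 of 28 of falling genes.
Hspb1: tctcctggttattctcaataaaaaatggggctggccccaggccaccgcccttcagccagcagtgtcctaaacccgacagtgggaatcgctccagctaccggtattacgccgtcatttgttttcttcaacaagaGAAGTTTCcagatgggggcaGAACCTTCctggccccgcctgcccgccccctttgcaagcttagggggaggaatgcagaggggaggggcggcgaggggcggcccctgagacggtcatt
Dnaja1: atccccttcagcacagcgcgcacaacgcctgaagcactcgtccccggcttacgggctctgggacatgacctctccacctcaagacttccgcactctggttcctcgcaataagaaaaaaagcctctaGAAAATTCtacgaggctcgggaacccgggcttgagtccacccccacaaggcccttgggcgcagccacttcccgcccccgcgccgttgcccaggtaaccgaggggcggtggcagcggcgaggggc

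In the proteasome, which degrades tagged proteins, 26 of 47 genes fell and 5 rose (median -1.01), with 22 to 28 falls in the same 5 settings. Psma7, a subunit of the core's outer ring, fell from 199 and 193 FPKM to 17.1 and 19.98 FPKM (change in log2: -3.33, SE 0.19, limma adjusted p = 5.8e-08). Psma2 fell from 134 and 119.8 FPKM to 17.4 and 17.2 FPKM and the ATPase gene Psmc5 from 68.6 and 69.2 FPKM to 9.65 and 6.86 FPKM. In each of these genes the 2-cell libraries lay together and far below both 1-cell libraries. Psme4, which encodes the activator PA200 of germ cells, was the exception among abundant members and rose from 90.7 and 93.02 FPKM to 182 and 179 FPKM. Psmb10, an immunoproteasome subunit gene, was listed at 0 in both 1-cell libraries and at 1.58 and 0.667 FPKM in the 2-cell libraries. The other 3 rises were those of the assembly factor gene Psmg2 and the activator gene Psme1, both under 4 FPKM in every library, and of Psmb1. Without 2-cell library 1 there was 1 rise, Psme4, and without library 2 there were 8; Psmg2, Psme1, Psmb1 and Psmb10 each lost their call with at least 1 other library left out as well.

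General transcription genes also divided: 31 of 105 rose (29.5%) and 28 fell (26.7%), near the 24.9% and 24.2% of all genes tested. Under TPM there were 20 rises and 46 falls, and all genes tested likewise had more falls (4834) than rises (3087). Hexim1, the inhibitor of the elongation kinase P-TEFb, rose from 0.750 and 0.498 FPKM to 37.2 and 30.4 FPKM, and Cdk9, the kinase itself, from 3.65 and 3.04 FPKM to 43.8 and 13.4 FPKM. Both genes of this pair were at least 3-fold higher in each 2-cell library than in either 1-cell library. The Mediator genes moved apart: Med29 rose from 1.89 and 1.28 FPKM to 47.00 and 22.9 FPKM, and Med17 fell from 89.96 and 85.4 FPKM to 4.94 and 7.48 FPKM and Med8 from 51.04 and 42.8 FPKM to 7.39 and 8.95 FPKM. Polr2h rose and Polr2k and Gtf2b fell. Spliceosome genes fell more often (45 of 112, 24 rises), among them those of Lsm3 (97.5 and 107 FPKM to 11.6 and 17.1 FPKM), Prpf6 (75.4 and 80.3 FPKM to 8.77 and 14.6 FPKM), Sf3a3 and Eftud2. Snrpb rose from 1.12 and 0.418 FPKM to 18.1 and 6.62 FPKM and Snrnp35 from 0.521 and 0.0963 FPKM to 22.5 and 5.37 FPKM, both higher in library 1.

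Chromatin and DNA methylation genes had 24 rises (30.8%) and 22 falls (28.2%) among 78, against 24.9% and 24.2% of all genes tested. Dnmt1, the maintenance DNA methyltransferase, fell from 281 and 264 FPKM to 36.97 and 37.9 FPKM (change in log2: -2.83, SE 0.22, limma adjusted p = 6.7e-07). Setdb1, a histone H3 lysine 9 methyltransferase, fell from 90.4 and 85.6 FPKM to 13.4 and 22.03 FPKM, and Zfp57, which guards imprints, from 279 and 286 FPKM to 42.2 and 83.3 FPKM. Kdm5b, a histone H3 lysine 4 demethylase, rose from 1.25 and 0.780 FPKM to 63.9 and 45.1 FPKM, Hdac1 from 4.35 and 2.59 FPKM to 55.1 and 38.6 FPKM, Cbx3 from 2.03 and 0.934 FPKM to 36.1 and 20.7 FPKM and Suv39h1 from under 0.2 FPKM to 13.2 and 7.85 FPKM. None of these genes overlapped between stages, which held for 78.2% of all genes tested. Under TPM the balance was 17 rises to 30 falls. The oocyte linker histone gene H1foo fell from 205 and 234 FPKM to 34.8 and 63.8 FPKM, and the replacement histone gene H2afz rose from 3.65 and 3.63 FPKM to 45.7 and 19.9 FPKM.

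Replication-dependent histone genes, whose messages end in a stem-loop and lack a poly(A) tail, included 38 rises and 2 falls among 60 tested. Hist1h1b, a linker histone gene, rose from 2.87 and 0.202 FPKM to 32.6 and 20.6 FPKM, and Hist1h2af from 1.43 and 3.29 FPKM to 38.6 and 30.4 FPKM. Hist2h2ac rose from 9.34 and 8.81 FPKM to 77.1 and 64.9 FPKM. Hist1h1d fell from 38.99 and 36.9 FPKM to 16.7 and 16.2 FPKM, and Hist1h2aa, a testis and oocyte form, from 131 and 171 FPKM to 72.8 and 83.9 FPKM, and neither fall held with each library left out (limma adjusted p up to 0.0978). Library 1 was the higher in 58 of the 60 (medians 1.47 and 0.80), and without it 21 genes rose. Copies within a histone class are near-identical, so single copies are uncertain. In polyA RNA of WT embryos the same group had 7 rises and 5 falls among 48 tested.

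The promoter of Hist2h2ac (RefSeq H2ac20) is shown for its CCAAT boxes, common in this group. The window is chr3:96220881-96221130 on the reverse strand (GRCm38.p6), with 3 matches to CCAAT or its reverse complement ATTGG in capitals. CCAAT was found in 46 of 55 matched promoters of the group (83.6%) in 38.1% of the matched promoters of all genes tested and in 34.5% of all RefSeq promoters. TATAAA was found in 29 of the 55 (52.7%), against 6.86% for genes tested and 13.0% for all. NF-Y, the complex that binds CCAAT, has the subunit genes Nfya and Nfyc, which fell here, and Nfyb, which did not pass.
Hist2h2ac: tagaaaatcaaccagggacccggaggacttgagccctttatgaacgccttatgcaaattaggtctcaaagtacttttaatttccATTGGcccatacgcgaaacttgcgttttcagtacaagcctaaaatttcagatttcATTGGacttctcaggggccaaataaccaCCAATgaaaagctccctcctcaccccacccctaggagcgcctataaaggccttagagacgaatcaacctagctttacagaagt

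Of 68 cell cycle genes 29 fell (42.65%) and 16 rose (23.5%), against 24.2% and 24.9% of all genes tested. Their median log2 difference was 0.05, beside 0.04 over all genes. The median was -0.28 under TPM and 0.11 under median-ratio scaling, so it gave the group no direction. Falls outnumbered rises under TPM (31 to 11), under median-ratio scaling (26 to 17) and with the 4 libraries fitted alone (26 to 16). Ccne1, the G1/S cyclin E1, rose from 3.88 and 2.27 FPKM to 159 and 84.95 FPKM (change in log2: 4.88, SE 0.34, limma adjusted p = 2.7e-07). Cdc25c rose from 2.05 and 2.19 FPKM to 34.7 and 18.96 FPKM while Cdc25a fell from 48.9 and 48.1 FPKM to 13.6 and 11.8 FPKM; both encode phosphatases that activate cyclin-dependent kinases. E2f7 and the inhibitor gene Cdkn1a, a p53 target, rose from under 2 FPKM to between 7.46 and 10.8 FPKM. Ccnb3, Orc3 and Orc4, subunits of the origin recognition complex in the last 2 cases, fell. Skp1a, an adaptor of SCF ubiquitin ligases and among the 5 highest protein-coding genes of the 1-cell stage, fell from 1484 and 1444 FPKM to 332 and 556 FPKM.

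Among 34 p53 targets and stress response genes 16 rose and 4 fell (median 0.75), with 7 falls under TPM and 2 without 2-cell library 2. Sesn2, a stress-induced regulator of mTORC1, rose from 1.07 and 0.960 FPKM to 67.5 and 37.4 FPKM. Trib3, Gadd45b, Ppp1r15b, Cdkn1a and Pmaip1 (NOXA) rose, each from under 4 FPKM. Trp53 itself did not pass (11.02 and 13.2 FPKM to 11.54 and 6.64 FPKM), nor did Mdm2 (63.5 and 59.2 FPKM to 59.9 and 49.8 FPKM). The transcription factor genes of the integrated stress response Atf4 (138 and 145 FPKM to 113 and 88.8 FPKM) and Ddit3 (40.5 and 43.9 FPKM to 15.01 and 16.2 FPKM) fell, as did Ddit4 and Bax. Bax lost its call with any 1 library left out (limma adjusted p of 0.0558 to 0.116), and Atf4, with a log2 difference of -0.49, without 2-cell library 2 or either 1-cell library (0.0766 to 0.181).

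The 13 protein-coding genes of the mitochondrial genome all rose, by 1.16 to 1.97 on the log2 scale. mt-Nd1 stood at 1383 and 1532 FPKM in the 1-cell libraries and 6506 and 4979 FPKM in the 2-cell libraries, mt-Cytb at 2859 and 3342 FPKM in the 1-cell libraries and 9568 and 10732 FPKM in the 2-cell libraries and mt-Nd6, the 1 gene of the light strand, at 345 and 425 FPKM in the 1-cell libraries and 864 and 854 FPKM in the 2-cell libraries. In each of the 3 both 2-cell libraries lay at least 2-fold above both 1-cell libraries. Mitochondrial genes together held 12.1% and 12.2% of FPKM in 1-cell libraries, then 25.0% and 27.9% in 2-cell libraries. All 13 rose under TPM too, with a median of 1.35 in place of 1.71. Of 89 nuclear genes of the respiratory chain, in contrast, 45 fell and 13 rose (median -0.70), with 7 rises under TPM and without 2-cell library 1. Ndufc2 fell from 24.02 and 28.3 FPKM to 0.950 and 0.297 FPKM and Sdhd, a complex II subunit gene, from 37.2 and 36.4 FPKM to 2.78 and 2.92 FPKM. Atp5g1, a subunit of the ATP synthase ring, rose from 3.55 and 3.19 FPKM to 29.6 and 22.8 FPKM.

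Of 25 structural and nuclear noncoding RNAs 12 rose and 1, Tug1, fell; Tug1 did not pass without 1-cell library 1 or 2-cell library 2 (limma adjusted p = 0.274 and 0.0952). Rn7sk, the scaffold of the P-TEFb inhibitory complex, stood at 4333 and 3720.0 FPKM in the 1-cell libraries and 18301 and 9344 FPKM in the 2-cell libraries, so library 1 lay at about 2 times library 2. Host genes of small nucleolar RNAs made up 7 of the 12 rises, with Snhg5 rising from 3.896 and 3.76 FPKM to 22.3 and 22.04 FPKM and Snhg8 from 0.569 and 0.384 FPKM to 8.44 and 7.54 FPKM. Small nucleolar RNAs themselves, guides for modification of ribosomal RNA, rose in 25 of 90 cases, and the other 65 did not pass. The share that rose (27.8%) was near that of all genes tested (24.9%). Their median was 1.14 (1.51 in library 1 and 0.78 in library 2), and without library 1 there were 10 rises. Snord55 stood at 0.195 FPKM and 0 in the 1-cell libraries and at 25.7 and 5.87 FPKM in the 2-cell libraries. Snora78 stood at 3.51 and 1.06 FPKM in the 1-cell libraries and 65.4 and 18.8 FPKM in the 2-cell libraries. Values of RNAs this short can depend on the length of the sequenced fragments, and many lie inside introns of their host genes.

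Set beside polyA RNA of WT embryos (B6, 2 single-embryo libraries a stage), where 3225 of 18506 genes (17.4%) rose and 1559 (8.42%) fell, several groups differed in balance. Of 85 ribosomal protein genes 78 rose and 1 fell in polyA RNA, with a median of 2.90, against 37 and 11 in total RNA with a median of 0.60. Ribosome biogenesis genes rose in 63 and fell in 3 of 128 (median 1.44), against 43 and 34 of 129. Nuclear respiratory chain genes had 35 rises and 8 falls in polyA RNA and 13 rises and 45 falls in total RNA. Proteasome genes had 12 and 8, and 5 and 26. For Bms1 the polyA values were 39.6 and 52.4 FPKM in 1-cell embryos, then 8.61 and 4.95 FPKM in 2-cell embryos. For Psma7 they were 419 and 490.3 FPKM in 1-cell embryos, then 20.7 and 27.4 FPKM in 2-cell embryos. The 2-cell genes were alike in both, with 34 of 49 rising in polyA RNA and a median of 3.44. In the polyA fit the spread of each gene was estimated over all polyA libraries, mutants included. These are 2 tables from different libraries, kits and embryos, normalised apart, so the difference between them was not tested.

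**Figure D5:**
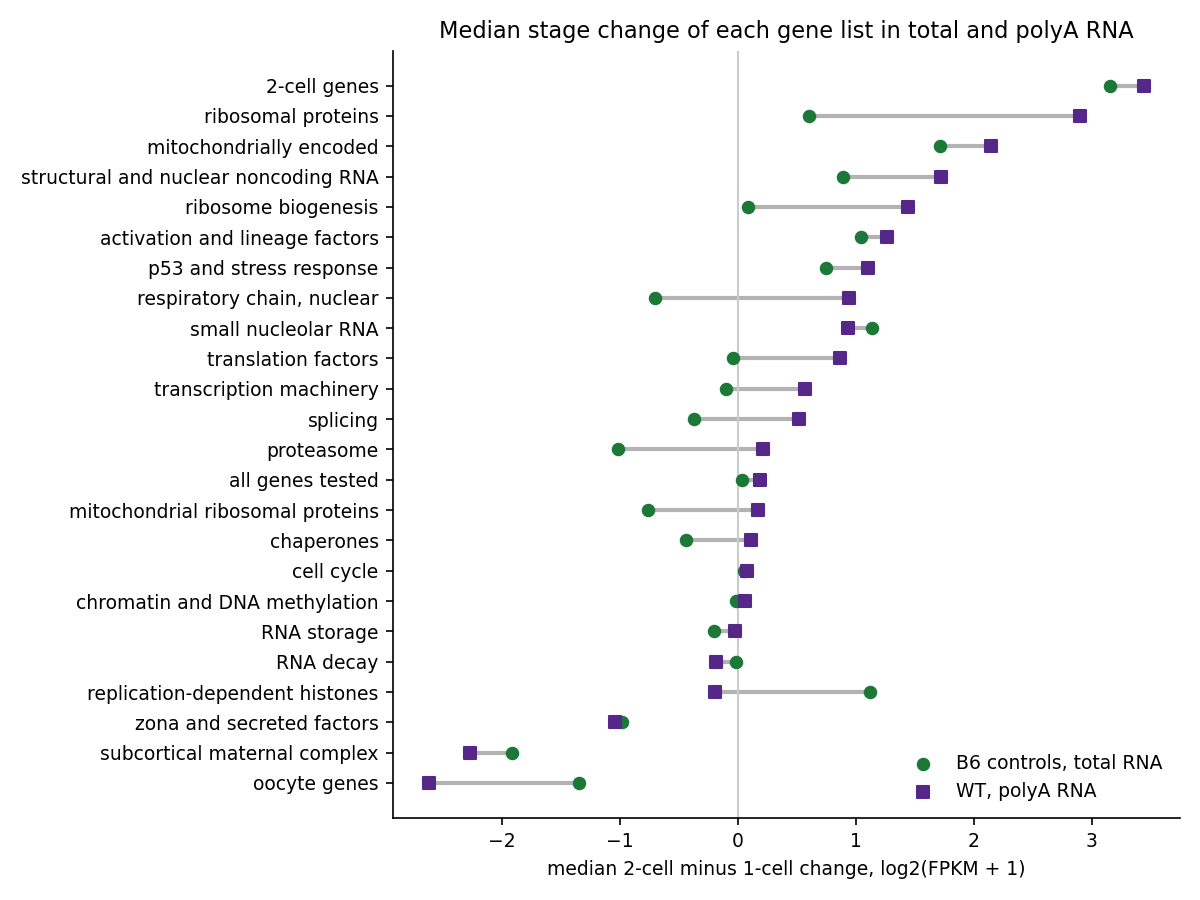
Median log2(FPKM + 1) difference between 2-cell and 1-cell embryos for 23 gene groups and all genes tested, in total RNA of B6 controls (green circles) and polyA RNA of WT embryos (purple squares). Ribosomal proteins (0.60 and 2.90), ribosome biogenesis (0.09 and 1.44) and nuclear respiratory chain genes (-0.70 and 0.94) lie more than 1 apart, and 2-cell genes lie close together (3.15 and 3.44).

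Of 24 cumulus and granulosa cell markers 5 were tested, and the list summed to 7.54 and 6.84 FPKM in 1-cell libraries, then 11.6 and 9.58 FPKM in 2-cell libraries; the defining genes Inha, Inhba and Hsd3b1 were listed at 0 in all 4 libraries. Amhr2 (listed at 0 in both 1-cell libraries, 7.19 and 3.26 FPKM in the 2-cell libraries) and Tnfaip6 rose (the second not without 2-cell library 1 or either 1-cell library), and Cyp19a1 fell from 5.43 and 4.89 FPKM to 0.468 and 0.952 FPKM. Of 15 blood markers 3 were tested, Cd74, Hba-a1 and Hba-a2, each listed at 0 at the 1-cell stage and between 1 and 8 FPKM at the 2-cell stage, while Hbb-bs, Hbb-bt, Ptprc and Alas2 were listed at 0 throughout. Of 22 sperm markers 6 were tested, and the list summed to 119.7 and 114.1 FPKM in 1-cell libraries, then 119.3 and 133.9 FPKM in 2-cell libraries. Most of this sum was Odf2 (79.03 and 74.4 FPKM in the 1-cell libraries and 94.4 and 106 FPKM in the 2-cell libraries), which also encodes a protein of centrioles, and Hspa4l (28.1 and 28.5 FPKM in the 1-cell libraries and 18.8 and 21.4 FPKM in the 2-cell libraries), a chaperone gene; neither passed. The sperm genes Tnp2, Akap4, Smcp, Gapdhs, Tssk2 and Crisp2 were listed at 0 in all 4 libraries. The protamine gene Prm2, whose RNA sperm carry, fell from 11.1 and 10.6 FPKM to 1.02 and 1.34 FPKM, and Prm1 was listed at 0 at the 1-cell stage. Any part of other cells in the results above was not tested.

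The closest other comparison is that of the Dppa2-arm controls, embryos of mixed B6/DBA background with intact Dppa2. There 4783 genes (31.7%) rose and 4498 (29.9%) fell. The stage change itself differed between the 2 kinds of control in 21 genes of 15068 (0.139%) in limma, with 2310 genes at an unadjusted p under 0.05. This count moved between 0 and 672 when 1 library was left out, and the 672 came without B6 2-cell library 1. Nucb2, a calcium-binding protein gene, stood at 1.56 and 3.75 FPKM in the 1-cell libraries and 5.09 and 4.18 FPKM in the 2-cell libraries in B6 and at 0.678 and 0.314 and then 18.7 and 15.4 FPKM in mixed embryos. Sycp3, of the meiotic synaptonemal complex, stood at 23.4 and 20.3 FPKM in the 1-cell libraries and 58.3 and 61.9 FPKM in the 2-cell libraries in B6 and at 15.3 and 12.4 and then 115 and 104 FPKM in mixed embryos. The first gene rose in mixed embryos alone by these tests, and the second rose in both, less in B6. Mfap2, a microfibril protein gene, stood at 54.4 and 47.9 FPKM in the 1-cell libraries and 80.1 and 60.7 FPKM in the 2-cell libraries in B6 and at 32.2 and 32.3 and then 5.11 and 7.83 FPKM in mixed embryos, where it fell. Strain, arm and collection cannot be told apart in this difference.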

How the data were processed

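Total RNA was sequenced from 16 libraries of whole embryos in 8 groups of 2, of which 4 libraries are described here. The deposited values are FPKM per gene. Per the submitters' processing notes, HISAT2 2.1.0, StringTie 1.3.3b and the mm10 build were used; for annotation, filters and strandedness the settings were not given in the sources used here. FPKM keeps no fragment totals, so depth was estimated from the smallest steps between low values.

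Values were taken as log2(FPKM + 1) and fitted over all 16 libraries with limma 3.58.1 in R 4.3.3 (trended, robust variance), with genes kept where 2 or more libraries reached 1 FPKM. Benjamini-Hochberg adjusted p under 0.05 over all genes tested was the threshold. No count test was run. The difference from the mixed-background controls was an interaction contrast of the same fit. The polyA FPKM table deposited by the authors was fitted alone in the same way. Its 16 libraries, of WT embryos and of Dppa2 and Dppa4 mutants, together set the filter and the spread. The contrast was between WT 2-cell and WT 1-cell embryos.

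The genes compared, the gene lists and the tests were chosen with earlier results of these data known. Genes were named by rule: the markers with Dppa2 and Dppa4; the 12 largest rises and falls with at least 5 FPKM in the higher stage, no overlap and no predicted model; up to 4 passing genes per list and direction, and every member of the Obox, subcortical complex, RNA storage and mitochondrial lists; the 8 largest differences between the 2-cell libraries each way (at least 10 FPKM); up to 6 differences from mixed controls each way; and the 5 highest protein-coding genes per stage. Of the genes so named, 2 are not reported here. Other listed members named for their role, such as the Zscan4, Usp17l and Trim43 copies, Duxf3, Ubtf, Npm1, Ncl, Polr1c, Nop2, Hspa1a, Pou5f1, Sox2, Trp53, Rn7sk and sperm markers, were chosen after their values were seen. Motifs were searched on both strands of RefSeq promoters with Python 3.11.15; for 2-cell genes and ribosomal proteins under 80% of members matched a promoter, so no share is given. Gene types came from GENCODE M21, which held 98.2% of the IDs. Alternatives were another pseudocount, filters, TPM and median-ratio scaling, the 4 libraries alone, array weights, no trend, a replicate block, and each library left out. The limma fit of the B6 stage change was tested on simulated data with planted changes, and the other steps were not.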

Additional observations from a re-analysis of the deposited data

Results flagged for a closer look

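The stage change differed between B6 and mixed-background controls in 12 genes named by rule, by the interaction contrast in limma (adjusted p of 0.0137 to 0.0446). Strain, study arm and collection cannot be told apart. In 6 of them the B6 change was the lower. Agpat9, a glycerolipid acyltransferase gene, had a difference of -3.62 on the log2 scale: it stood at 20.8 and 22.8 FPKM in the 1-cell libraries and 12.6 and 13.4 FPKM in the 2-cell libraries in B6, and at 0.670 and 0.633 and then 19.3 and 6.67 FPKM in mixed embryos. The differences were -2.91 for Nucb2, -2.501 for Snapc3 (a small nuclear RNA transcription factor), -2.13 for Rbm34, -1.72 for Ugcg (glucosylceramide synthase) and -1.48 for Sycp3.

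In the other 6 the B6 change was the higher, by 4.50 for Mir8092, 3.55 for Gemin7 (an SMN complex subunit), 3.26 for Tceal8, 2.90 for Rab3b, 2.62 for Mfap2 and 2.01 for Mgst3. Mir8092 rose in B6 (0.1504 and 0.126 FPKM to 6.404 and 3.57 FPKM) and fell in mixed embryos (4.64 and 4.80 to 0.320 and 0.267 FPKM). Tceal8 differed already at the 1-cell stage: it stood at 48.05 and 85.3 FPKM in mixed 1-cell embryos and at 0.12 FPKM or less in all 4 B6 libraries.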

How the results depend on the processing

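The 3755 rises and 3649 falls became 2057 rises and 2751 falls among the 7900 genes with a mean of at least 5 FPKM. With 1 library left out there were 2669 to 3757 rises and 2708 to 3237 falls. Without 2-cell library 1, 2596 rises and 2753 falls were kept, and without library 2, 3313 and 3033. The labels do not say that replicate numbers pair the samples (correlation of deviations 0.139); with the number as a replicate block there were 3686 rises and 3548 falls, and it changed no call of a named gene. The 21 genes differing from mixed controls became 33 with a pseudocount of 0.1, 72 with no filter, 53 at a mean of at least 5 FPKM, 3 with array weights and 4 with the replicate block. With 1 library left out this count ran from 0 to 672. It was 0 in limma without 1-cell library 1 of either control, with 1567 (B6) and 1676 (mixed) genes at an unadjusted p under 0.05. Without mixed 2-cell library 2 or 1 it was 193 or 94. The median of 2-cell library 1 was 2.35 (rises) and -1.92 (falls) with a pseudocount of 0.1 and -2.12 (falls) under TPM; library 2 had 1.61 (rises) and -1.63 (falls) respectively. The median of transcription machinery genes, -0.10, was 0.0047 without 2-cell library 2, down to -0.126 without another library, and -0.45 under TPM. That of small RNA genes, -0.10, was 0.0568 without 1-cell library 1, down to -0.111 without another, -0.45 under TPM and -0.75 at a mean of at least 5 FPKM. That of sperm markers, 0.36, was -0.0487 at a mean of at least 5 FPKM. The causes were not tested. Of the other results by setting, for named genes and list medians, 3387 were counted as the same, 208 as weaker and 72 as moved. For a gene, the same means that direction and side of the threshold were kept, and weaker that only direction was. For a list median, the same means a shift smaller than the spread between the 2-cell libraries, and moved a larger one. A median near 0 could thus change sign and still count as the same. The 2 libraries a stage and the unknown fragment totals limit all values.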

Other observations

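Of 19 small RNA pathway genes tested, 12 did not pass, 5 fell (26.3%, against 24.2% of all genes tested) and 2 rose (1 without 2-cell library 1). Dicer1, the endonuclease of small RNA maturation, fell from 102 and 102 FPKM to 42.5 and 45.7 FPKM, and Xpo5, the export receptor of miRNA precursors, from 13.3 and 13.9 FPKM to 3.72 and 3.80 FPKM. The piRNA pathway genes Tdrd1 (117 and 109 FPKM to 32.3 and 55.2 FPKM) and Ddx4 (18.4 and 19.9 FPKM to 10.2 and 7.72 FPKM) fell, and Piwil2 rose from 0.330 and 0.270 FPKM to 4.79 and 2.17 FPKM. Ddx4 did not pass in limma without either 1-cell library or 2-cell library 2 (adjusted p of 0.0502 to 0.0873). Among replacement histones H2afx rose from 21.04 and 20.6 FPKM to 82.03 and 36.6 FPKM, with library 1 at over 2 times library 2, and Cenpa, the centromeric form of histone H3, rose from 20.4 and 18.5 FPKM to 34.9 and 26.3 FPKM. Cenpa did not pass in limma without 1-cell library 2 (adjusted p = 0.103) or 2-cell library 1 (0.143), or under TPM (0.222).

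Gene types also differed in balance; they were compared after the values were seen and no test was made. Of 125 unprocessed pseudogenes 69 (55.2%) rose and 12 fell, with a median log2 difference of 1.21 (1.39 in 2-cell library 1 and 1.06 in library 2). Copies of this kind share sequence with their parent genes, so reads may have been divided among them. Of 12257 protein-coding genes 3060 rose and 3275 fell, and their summed level was 306800 and 310000 FPKM in 1-cell libraries, then 281600 and 279500 FPKM in 2-cell libraries. On the mitochondrial genome 36 of 37 genes rose, transfer RNAs included (21 of 22).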
